A study of Mus musculus with 20 samples.

Results

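A set of 50 genes of mitosis and chromosome segregation was followed in articular chondrocytes, the only resident cells of cartilage, from the joints of mice. The members were a list of symbols matched to the gene names of the deposited expression table, and a member was kept where it reached 1 FPKM, which is fragments per kilobase of gene corrected for library depth, in at least 5 of 20 libraries. All 50 were found among 54532 genes, and all 50 were among the 12752 genes that passed that minimum. Per the labels, the chondrocytes came from 6-week-old mice and were treated for 48 hours in 4 groups of 5 libraries each. Vehicle had DMSO, the solvent. The 25HC group had 20 µM of 25-hydroxycholesterol, an oxysterol. The 25HC3S group had 20 µM of its sulfate, which carries the sulfate at the 3 position of the sterol. The GW3965 group had 2 µM of a non-steroidal synthetic agonist of the liver X receptors. The sources used here do not name the strain, the sex or the culture conditions. They also do not say if replicates were different animals, so a p-value reflects library-to-library spread that can be technical.

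The products of these genes carry a cell through division. Cyclins A and B with CDK1 start mitosis, condensin and topoisomerase II compact and untangle the chromosomes, the kinetochore ties each chromosome to the spindle, and the checkpoint holds anaphase until all are attached. The anaphase-promoting complex then destroys cyclin B and securin, and the cleavage furrow separates the daughters. Most genes of this kind are silent in resting cells and are switched on together in late S and G2 phase, when the repressive DREAM complex is exchanged for B-MYB and FOXM1 at a promoter element called the CHR, often with CCAAT boxes bound by NF-Y nearby. Articular cartilage holds few dividing cells in the adult joint, and chondrocytes taken into culture are known to divide again. In bulk RNA, fewer dividing cells and less mitotic RNA per cell cannot be told apart.

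The libraries held 14653777 to 19365220 fragments in genes, worked out from the deposited values. Vehicle replicates 2, 3 and 4 and 25HC3S replicate 1 stood apart from the other 16 libraries. They had 237 to 1171 genes with exactly 1 fragment, against 1808 to 2057 in the others, and the share of fragments from mitochondrial genes was 3.14% to 4.07% in 3 of them and 0.369% in Vehicle 2, against 0.888% to 1.41%. Every comparison is therefore given over all 20 libraries and over the 16, where Vehicle keeps 2 libraries and 25HC3S keeps 4. The labelled cell type was checked on its markers. All 15 chondrocyte markers passed the minimum, with a summed level of 1924 to 5420 FPKM in Vehicle, 3983 to 4383 in 25HC, 2645 to 4029 in 25HC3S and 4159 to 5144 in GW3965. All 14 macrophage markers and 8 of 9 synovial fibroblast markers also passed, as did 3 of 7 endothelial, 4 of 7 osteoblast and osteocyte, 1 of 7 skeletal muscle and 3 of 5 adipocyte markers. None of 6 erythroid and none of 6 lymphocyte markers did, and their sums were at most 0.338 and 0.491 FPKM. The fibroblast markers summed to 3606 to 8782 FPKM in Vehicle, 4623 to 5388 in 25HC, 4117 to 4328 in 25HC3S and 4250 to 5035 in GW3965. In each group this range overlapped that of the chondrocyte markers or lay above it, so the sums do not set chondrocytes apart from fibroblasts. Abca1, a standard liver X receptor target, averaged 11.2 ± 2.66 FPKM (SD, n = 5) in Vehicle, 5.96 ± 0.482 in 25HC, 9.55 ± 2.04 in 25HC3S and 111 ± 2.10 in GW3965.

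Mitotic transcripts took the smallest share of the library in all 5 GW3965 libraries. Summed over the 50 members, fragments per 1000000 in genes were 960 to 1177 in GW3965 (mean 1065 ± 87.1, SD, n = 5). They were 1466 to 1799 in 25HC (1673 ± 154, n = 5), 1769 to 2091 in 25HC3S (2019 ± 140, n = 5) and 1652 to 2312 in Vehicle (1954 ± 303, n = 5). Every GW3965 library lay below every library of the other 3 groups. Without the 4 libraries that stood apart, Vehicle had 1652 and 1799 (1726 ± 103, n = 2) and 25HC3S had a mean of 2002 ± 156 (n = 4), so that Vehicle and 25HC shared a range and 3 of the remaining 25HC3S libraries lay above both. The other one, 25HC3S replicate 2, had 1769.

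**Figure D1:**
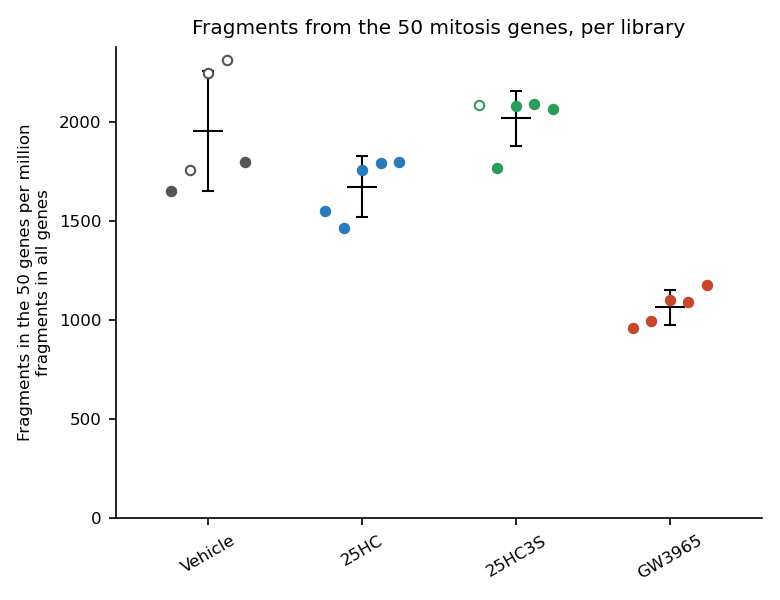
Fragments of the 50 mitosis genes per 1000000 fragments in genes, 1 point per library, for the 4 groups. Open points are the 4 libraries that stood apart, and bars give the mean ± SD over 5 libraries. GW3965 runs from 960 to 1177 and the lowest library of any other group is at 1466.

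The members varied together. The median Pearson correlation over the 1225 pairs of members was 0.93 for log2 levels over the 16 libraries and 0.74 over all 20. With the group means taken out, it was 0.60 over the 16 libraries. These values describe genes that share libraries and their depth, and the pairs are not independent. The same correlation was not worked out for other tested genes, and the list was chosen with earlier results of these data known.

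The promoters of the members are shown for the elements named above. RefSeq windows on build GRCm38.p6, from 250 bases before to 50 bases after the gene start, were available for 42 of the 50 members and for 9141 of the genes tested. The windows were searched on both strands for TTTGAA and TTTAAA, the 2 usual forms of the core of the CHR, and for CCAAT, the box bound by NF-Y. The form TTTGAA was in 32 of 42 member windows (76.2%), against 11.6% of the tested genes' windows and 18.1% of all 27025 windows. TTTAAA was in 10 (23.8%), against 8.92% of the tested genes. At least 1 of the 2 forms was in 35 (83.3%), against 18.8%, and CCAAT was in 30 (71.4%), against 38.7%. A window with both kinds of element was found for 28 members (66.7%), against 7.67%. None of the 54 six-base matches in member windows overlapped a CCAAT match. By position, 30 of 42 members (71.4%) had a six-base match within 50 bases of the start, against 4.80% of the tested genes. The E2F-type sequences TTTGGCGC, TTTGCCGC, TTTCGCGC and TTTCCCGC, known from genes of DNA replication, were in 5 member windows (11.9%), against 4.25%. The members were a list of genes many of which are known targets of this kind, so the shares describe the list, and a match does not show that a factor binds there.

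Printed here are the 6 windows with both elements whose genes differed most between GW3965 and Vehicle over 20 libraries. The ranking is by the difference in log2(FPKM + 1), a scale that understates changes of low genes. By the ratio of mean FPKM, GW3965 over Vehicle, other genes with both elements were lower than Smc2 (0.515), such as Kif4 (0.433), Aspm (0.449) and Hmmr (0.467). Each is given 5′ to 3′ on the strand of its gene, with matches to the CHR core, the CCAAT box or their reverse complements in capitals (ATTGG is the box on the other strand). Top2a encodes topoisomerase II alpha and its window is at chr11:99024140-99024439 (minus strand). Mki67 encodes the proliferation antigen Ki-67, at chr7:135716330-135716629 (minus strand). Cenpf encodes a large kinetochore protein, at chr1:189688037-189688336 (minus strand). Ncapg encodes a condensin subunit, at chr5:45669675-45669974 (plus strand). Cenpe encodes the kinetochore motor CENP-E, at chr3:135212313-135212612 (plus strand). Smc2 encodes the condensin ATPase, at chr4:52438971-52439270 (plus strand). All 6 genes were higher in each of Vehicle 3 and Vehicle 4, which stood apart, than in the Vehicle libraries that did not. The ranking includes these libraries, and their part in it was not tested. Without the 4 libraries that stood apart, Cenpf was not called lower in GW3965 than in Vehicle.
Top2a: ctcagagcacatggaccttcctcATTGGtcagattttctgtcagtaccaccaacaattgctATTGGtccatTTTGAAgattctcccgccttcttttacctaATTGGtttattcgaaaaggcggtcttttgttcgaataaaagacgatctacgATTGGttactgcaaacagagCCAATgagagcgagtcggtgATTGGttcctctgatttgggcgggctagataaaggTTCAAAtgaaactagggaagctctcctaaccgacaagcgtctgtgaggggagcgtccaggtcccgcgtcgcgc
Mki67: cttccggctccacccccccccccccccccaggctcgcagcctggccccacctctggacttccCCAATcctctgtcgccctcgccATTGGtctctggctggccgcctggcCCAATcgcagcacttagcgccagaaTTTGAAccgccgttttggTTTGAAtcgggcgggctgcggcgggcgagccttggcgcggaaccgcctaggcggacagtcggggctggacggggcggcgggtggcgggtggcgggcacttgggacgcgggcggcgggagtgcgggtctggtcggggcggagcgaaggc
Cenpf: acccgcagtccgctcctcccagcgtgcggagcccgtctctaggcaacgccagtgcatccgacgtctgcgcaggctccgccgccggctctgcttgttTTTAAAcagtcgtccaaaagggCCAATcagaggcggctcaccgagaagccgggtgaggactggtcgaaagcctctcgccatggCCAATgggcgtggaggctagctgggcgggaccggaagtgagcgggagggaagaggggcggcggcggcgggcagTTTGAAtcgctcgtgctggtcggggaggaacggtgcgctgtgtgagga
Ncapg: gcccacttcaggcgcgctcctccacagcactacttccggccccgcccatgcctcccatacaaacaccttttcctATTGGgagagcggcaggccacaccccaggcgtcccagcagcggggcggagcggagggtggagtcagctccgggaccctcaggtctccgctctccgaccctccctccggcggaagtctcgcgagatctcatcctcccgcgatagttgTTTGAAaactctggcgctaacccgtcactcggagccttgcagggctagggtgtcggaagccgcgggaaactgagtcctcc
Cenpe: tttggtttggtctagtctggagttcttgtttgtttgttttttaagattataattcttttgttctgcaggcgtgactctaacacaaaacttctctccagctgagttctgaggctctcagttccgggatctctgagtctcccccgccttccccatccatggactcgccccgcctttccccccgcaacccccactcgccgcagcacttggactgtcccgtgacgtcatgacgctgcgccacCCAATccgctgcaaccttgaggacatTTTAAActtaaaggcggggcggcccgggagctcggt
Smc2: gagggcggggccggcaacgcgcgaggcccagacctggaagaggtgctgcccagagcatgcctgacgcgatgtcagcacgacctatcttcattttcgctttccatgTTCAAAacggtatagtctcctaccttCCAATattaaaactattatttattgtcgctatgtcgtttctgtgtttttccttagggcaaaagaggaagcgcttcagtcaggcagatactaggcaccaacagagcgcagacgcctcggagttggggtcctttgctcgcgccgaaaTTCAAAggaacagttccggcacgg

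In Top2a, 1 six-base match starts 179 bases before the gene start and the other 23 bases before it, among 6 CCAAT boxes. In Mki67 the matches start 116 and 98 bases before the start with 3 CCAAT boxes, and in Ncapg the single match starts 30 bases before it. In Cenpf, Cenpe and Smc2 a match lies just after the start, beginning at position 3, 15 and 27 in that order. No six-base match was found in the windows of Nuf2, Nusap1, Ncaph, Bub1, Melk, Mad2l1 and Diaph3. The median log2 difference between GW3965 and 25HC, given below, was -0.50 for the 35 members with a six-base match (-0.75 to -0.27) and -0.49 for the 7 without (-0.73 to -0.30), so the 2 ranges lay on each other.

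**Figure D2:**
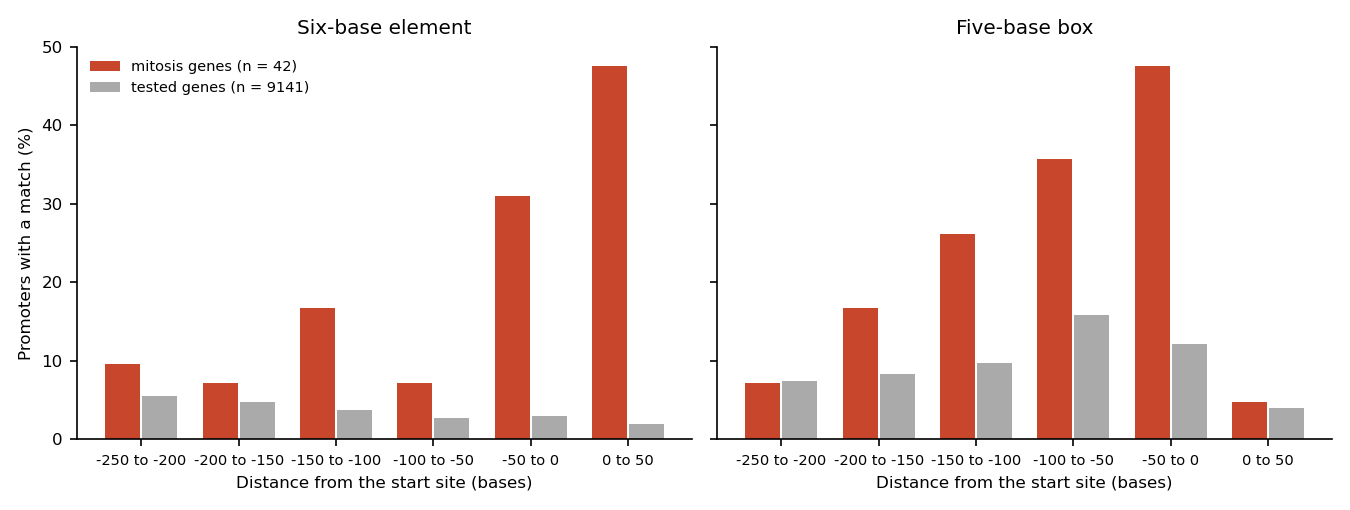
Share of promoter windows with a match to the six-base element or the five-base box, in 50-base steps from 250 bases before to 50 bases after the gene start, for the 42 members and for the tested genes with a window. The members' six-base matches gather around the start.

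The comparison of GW3965 with 25HC sets 2 µM of the synthetic agonist beside 20 µM of the sterol. It holds none of the 4 libraries that stood apart, so its differences are the same in both fits and only the shared estimate of the spread changes. All 50 members had a lower mean in GW3965. The ratio of mean FPKM, GW3965 over 25HC, had a median of 0.644 and ran from 0.511 for Cdc25c to 0.806 for Smc4. On the log2(FPKM + 1) scale the median difference was -0.51, beside 0.01 over all tested genes, and the range was -0.81 (Pbk) to -0.27 (Cenpa). In limma over all 20 libraries, with Benjamini-Hochberg adjustment over all tested genes, 24 members were called lower and 0 higher at an adjusted p under 0.05, where 0.894% of all tested genes were called lower and 0.847% higher. At an unadjusted p under 0.05, 45 members were lower and 0 higher, where 7.5% of all genes were under 0.05. Over the 16 libraries 49 members were called lower and 0 higher, beside 6.82% of all genes called lower and 6.3% higher. The exception was Cenpa (adjusted p = 0.06). In 44 members every GW3965 library lay below every 25HC library, beside 5.72% of all tested genes. The 6 members whose libraries overlapped were Ccnb2, Cenpa, Cenpe, Hmmr, Kif23 and Mad2l1. Macrophage markers summed to 741 to 1052 FPKM in 25HC and 939 to 1091 in GW3965, with 1 of 14 called lower and 0 higher over 20 libraries and 1 lower and 2 higher over 16. Of 15 chondrocyte markers, 0 were called over 20, and 5 were lower and 2 higher over 16. The part of either list in the result was not tested.

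Against Vehicle, 40 members were called lower and 0 higher in GW3965 over 20 libraries (2.97% of all tested genes lower and 3.49% higher), with a median difference of -0.60 beside 0.02 over all genes. Over 16 libraries 45 were called lower and 0 higher (3.79% of all genes lower and 3.98% higher), with a median of -0.52. A fit of Vehicle and GW3965 alone called 20 members lower, beside 0.533% of all genes. Over 20 and 16 libraries, 37 were called in both. Ccnb1, Cenpf and Mad2l1 were called over 20 libraries and not over 16, and Ccnb2 and Cenpa in neither. No member was higher at an unadjusted p under 0.05 in either fit. Against 25HC3S, 40 members were called lower and 0 higher over 20 libraries (2.13% of all genes lower and 2.51% higher), with a median of -0.70. All 50 were called lower over 16 libraries (8.59% of all genes lower and 9.27% higher), with a median of -0.71 and a range of -1.06 (Pbk) to -0.43 (Kif15). In the same comparison 5 of 14 macrophage markers were called higher and 1 lower over 20 libraries, and 10 and 1 over 16, with a median of 0.58 and 0.51. Of 15 chondrocyte markers 6 were called higher over 16, and of 8 fibroblast markers 4. Against Vehicle, 2 macrophage markers were called lower over 20 and 1 over 16. The part of these markers in the result was not tested. The 3 comparisons share the GW3965 libraries and are not independent of each other. In FPKM, GW3965 lay below every Vehicle library in 32 members (3.29% of all genes) and below every 25HC3S library in 43 (5.85%).

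**Figure D3:**
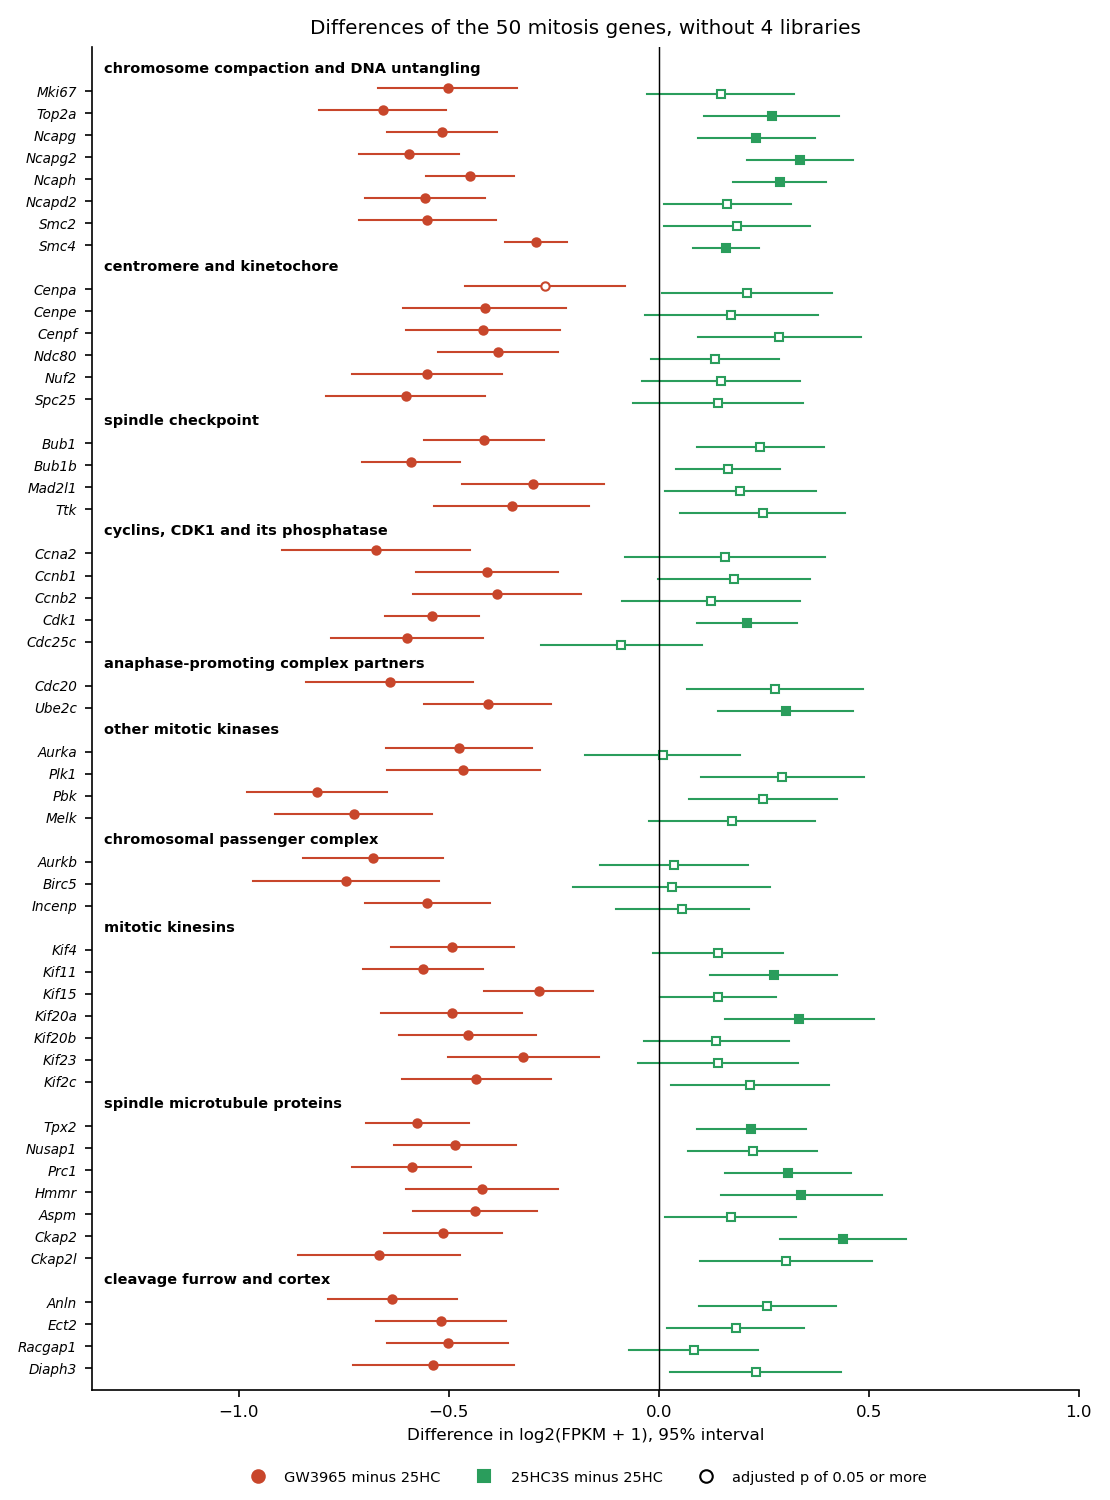
Difference of each member in log2(FPKM + 1) with its 95% interval over 16 libraries, by role, for GW3965 minus 25HC (circles) and 25HC3S minus 25HC (squares). Open symbols have an adjusted p of 0.05 or more. All circles lie between -0.81 and -0.27, and all squares but that of Cdc25c lie right of 0.

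The 8 genes that compact and untangle chromosomes were lower in GW3965. All 8 were called lower against Vehicle over 20 libraries, 4 against 25HC and 6 against 25HC3S, and over 16 libraries all 8 in each. The shares of all tested genes called lower were 2.97%, 0.894% and 2.13% over 20 libraries, and 3.79%, 6.82% and 8.59% over 16, in that order. These shares also stand beside the counts by role below. Mki67, at chr7:135689784-135716361 in the coordinates of the table, which equal those of GENCODE M21 on GRCm38 for 47 of the 50 members, encodes Ki-67, which coats mitotic chromosomes and keeps them apart. Mki67 had 15.6, 14.5, 43.0, 42.9 and 18.4 FPKM in Vehicle replicates 1 to 5, 14.8, 13.9, 17.7, 16.7 and 17.9 in 25HC, 36.3, 15.6, 19.4, 17.4 and 19.6 in 25HC3S and 10.0, 10.8, 11.3, 11.1 and 12.2 in GW3965. All 5 GW3965 libraries lay below the other 15, and Vehicle 3, Vehicle 4 and 25HC3S 1 lay far above the rest. The difference between GW3965 and 25HC was -0.50 ± 0.27 (log2, SE over 20 libraries), with an adjusted p of 0.8 over 20 libraries and 3.9e-04 over 16. Here and below, an error followed by adjusted p-values over both 20 and 16 libraries is that of the 20-library fit. Against Vehicle it was -1.05 ± 0.27 (adjusted p = 0.024) over 20 and -0.57 ± 0.10 (adjusted p = 0.0022) over 16. The call of Mki67 over 20 libraries was lost without Vehicle 3, Vehicle 4 or any 1 of GW3965 1 to 4 (adjusted p 0.051 to 0.0697), and in the fit of 2 groups (0.157).

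Top2a, at chr11:98992943-99024189, encodes the enzyme that unlinks sister DNA. Top2a had 16.1, 19.8, 28.5, 32.1 and 17.1 FPKM in Vehicle replicates 1 to 5, 15.1, 14.3, 16.9, 18.1 and 17.9 in 25HC, 27.0, 18.2, 20.3, 20.8 and 20.6 in 25HC3S and 8.77, 9.28, 10.4, 10.5 and 11.3 in GW3965. Again all GW3965 libraries were lowest. The difference was -0.66 ± 0.15 against 25HC (adjusted p = 0.03 over 20 libraries and 1.2e-05 over 16), and -1.06 ± 0.15 against Vehicle over 20 libraries (adjusted p = 2.6e-04) or -0.67 ± 0.09 over 16 (adjusted p = 2.5e-04). The call of Top2a against 25HC over 20 libraries was lost when any 1 of 25HC 1, 3, 4 and 5 or GW3965 1 to 4 was left out (adjusted p 0.0508 to 0.0985), and without the minimum on FPKM (0.0522). Ncapg2 encodes a subunit of condensin II, which compacts chromosomes inside the nucleus early in mitosis. Ncapg2 had 4.81, 6.92, 10.6, 10.7 and 4.93 FPKM in Vehicle replicates 1 to 5, 4.45, 4.79, 5.23, 5.11 and 5.65 in 25HC, 8.85, 6.28, 6.89, 6.78 and 6.52 in 25HC3S and 2.55, 2.95, 3.12, 3.20 and 3.19 in GW3965. GW3965 was below all 15 other libraries, and the 25HC3S libraries were all above the 25HC libraries. Ncapg2 was lower in GW3965 than in 25HC by -0.59 ± 0.16 (adjusted p = 0.082 over 20 and 2.8e-06 over 16). The other condensin genes, with their difference between GW3965 and 25HC, were Ncapd2 at -0.56, Ncapg at -0.52, Ncaph at -0.45, Smc2 at -0.55 and Smc4 at -0.29, all 5 called over 16 libraries. Smc4, which had the highest mean level of the set in 25HC (17.4 ± 0.738 FPKM, SD, n = 5) and 14.0 ± 0.451 in GW3965, kept the largest share of it.

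Most centromere and kinetochore genes were lower in GW3965. Of 6 members, 5 were called lower in GW3965 than in Vehicle over 20 libraries, 2 than in 25HC (Nuf2 and Spc25) and 5 than in 25HC3S. Over 16 libraries the counts were 4, 5 and 6. Cenpf encodes a large protein of the outer kinetochore that marks G2 nuclei. Cenpf had 1.31, 2.49, 5.70, 3.98 and 1.64 FPKM in Vehicle replicates 1 to 5, 1.19, 1.23, 1.49, 1.98 and 1.81 in 25HC, 3.81, 1.87, 2.12, 2.08 and 2.25 in 25HC3S and 0.750, 0.821, 0.895, 0.971 and 1.00 in GW3965. GW3965 lay below the other 15 libraries, and the 4 highest values were those of the 4 libraries that stood apart. Against 25HC the difference was -0.42 ± 0.22 (adjusted p = 0.79 over 20, 0.0038 over 16). Cenpa encodes the histone H3 variant that marks the centromere. Cenpa had 2.63, 2.33, 1.66, 2.05 and 3.21 FPKM in Vehicle replicates 1 to 5, 2.43, 2.56, 3.60, 3.65 and 2.73 in 25HC, 2.05, 3.26, 3.46, 4.08 and 3.56 in 25HC3S and 1.90, 2.34, 2.47, 2.42 and 2.31 in GW3965. Its libraries overlapped in every pair of groups, and only the difference from 25HC3S over 16 libraries was called (-0.48 ± 0.10, adjusted p = 0.0019). Nuf2 (-0.55), Spc25 (-0.60) and Ndc80 (-0.38), subunits of the NDC80 complex that grips microtubule ends, and the motor gene Cenpe (-0.41) were all called lower in GW3965 than in 25HC over 16 libraries.

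The 4 spindle checkpoint genes were all called lower in GW3965 than in 25HC over 16 libraries, and 1 of them, Bub1b, over 20. Bub1b, whose product BubR1 inhibits the anaphase-promoting complex, fell from 5.81 ± 0.266 FPKM in 25HC to 3.52 ± 0.227 in GW3965 (SD, n = 5 each), a difference of -0.59 ± 0.11 with an adjusted p of 0.0044. Bub1, its kinase partner at the kinetochore, differed by -0.42, the checkpoint kinase gene Ttk by -0.35 and Mad2l1, which encodes MAD2, by -0.30. Mad2l1 was also the member whose GW3965 and Vehicle libraries still overlapped when the 4 libraries were left out, and the 49 others did not overlap then (11.1% of all genes).

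Cdk1 encodes the kinase that drives entry into mitosis. Cdk1 had 8.22, 5.38, 4.38, 4.37 and 8.27 FPKM in Vehicle replicates 1 to 5, 8.03, 6.48, 8.04, 7.97 and 7.64 in 25HC, 5.45, 8.73, 9.31, 8.97 and 8.84 in 25HC3S and 5.03, 4.33, 5.12, 4.96 and 5.22 in GW3965. GW3965 lay below all 25HC and 25HC3S libraries and shared its range with Vehicle 3 and 4. The difference from 25HC was -0.54 ± 0.15 (adjusted p = 0.094 over 20 and 4.4e-06 over 16). Against Vehicle, Cdk1 was not called over 20 libraries (-0.22 ± 0.15, adjusted p = 0.3) and was called lower over 16 (-0.64 ± 0.07, adjusted p = 2.6e-05). Ccnb1 encodes cyclin B1, the partner of CDK1. Ccnb1 had 5.60, 5.94, 6.32, 5.62 and 5.81 FPKM in Vehicle replicates 1 to 5, 5.45, 4.96, 6.63, 6.54 and 6.40 in 25HC, 5.77, 5.86, 6.98, 7.81 and 7.00 in 25HC3S and 3.85, 3.87, 4.42, 4.26 and 4.88 in GW3965. Its Vehicle libraries were close together, Vehicle 2, 3 and 4 included, and GW3965 was below all 15 others. The difference was -0.41 ± 0.09 against 25HC (adjusted p = 0.013 over 20), -0.54 ± 0.09 against 25HC3S (adjusted p = 3.9e-04) and -0.39 ± 0.09 against Vehicle (adjusted p = 0.01). Over 16 libraries the last became -0.36 ± 0.11 with an adjusted p of 0.052 and was not called. Without 25HC 3, the call of Ccnb1 against 25HC was lost as well (adjusted p = 0.0515). Of the 5 genes of cyclins, CDK1 and its phosphatase, 3 were called lower than in 25HC over 20 libraries, namely Ccna2 (-0.67), Ccnb1 and Cdc25c (-0.60), and all 5 over 16. Cdc25c, whose product removes the inhibitory phosphates from CDK1, had as few as 22 fragments in a library, the least of any member.

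Plk1 encodes a kinase of the spindle poles and kinetochores. Plk1 had 9.67, 4.04, 6.03, 4.61 and 9.85 FPKM in Vehicle replicates 1 to 5, 9.09, 7.71, 10.7, 9.40 and 11.4 in 25HC, 5.55, 10.7, 12.9, 12.6 and 11.8 in 25HC3S and 5.71, 6.44, 7.53, 6.87 and 6.93 in GW3965. GW3965 lay below 25HC in every library, whereas Vehicle 2, 3 and 4 and 25HC3S 1 reached into or below the GW3965 range. Over 20 libraries no comparison of Plk1 was called: the difference from Vehicle was 0.04 ± 0.22 (adjusted p = 0.9) and from 25HC -0.47 ± 0.22 (adjusted p = 0.62). Over 16 libraries Plk1 was called lower against Vehicle (-0.49 ± 0.11, adjusted p = 0.014), 25HC (-0.47 ± 0.09, adjusted p = 0.0017) and 25HC3S (-0.76 ± 0.09, adjusted p = 2.0e-05). The other mitotic kinases differed from 25HC by -0.81 (Pbk), -0.73 (Melk) and -0.48 (Aurka, the spindle pole kinase Aurora A). Of these, Pbk and Melk were called over 20 libraries and all 3 over 16. Pbk, shown because it had the largest difference from 25HC and so chosen after its values were seen, had 9.43 to 12.4 FPKM in 25HC and 5.17 to 6.39 in GW3965.

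Cdc20 and Ube2c encode the activator and the ubiquitin-conjugating enzyme of the anaphase-promoting complex. Ube2c had 6.17, 3.23, 4.40, 3.78 and 6.52 FPKM in Vehicle replicates 1 to 5, 5.84, 5.77, 7.02, 5.81 and 6.74 in 25HC, 3.85, 6.72, 8.41, 8.69 and 7.89 in 25HC3S and 4.75, 3.78, 4.28, 4.72 and 4.73 in GW3965. GW3965 was below 25HC in every library and overlapped Vehicle and 25HC3S only at Vehicle 2, 3 and 4 and 25HC3S 1. The difference from 25HC was -0.41 ± 0.17 (adjusted p = 0.49 over 20 and 0.0011 over 16). Cdc20 differed by -0.64 ± 0.24 (adjusted p = 0.33 over 20 and 2.1e-04 over 16). Neither gene was called over 20 libraries in any comparison with GW3965, and over 16 both were called lower in all 3.

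Aurkb, Birc5 and Incenp encode the kinase Aurora B, survivin and the scaffold of the chromosomal passenger complex, which corrects wrong attachments and sets up the furrow. Aurkb had 7.00, 8.45, 2.54, 3.29 and 8.05 FPKM in Vehicle replicates 1 to 5, 7.31, 6.57, 7.55, 7.47 and 7.93 in 25HC, 4.21, 6.27, 7.41, 8.94 and 7.87 in 25HC3S and 3.56, 4.01, 4.42, 4.67 and 4.48 in GW3965. GW3965 lay below 25HC in every library, and Vehicle 3 and 4 were the lowest of all 20. Aurkb was lower by -0.68 ± 0.23 than in 25HC (adjusted p = 0.21 over 20 and 2.2e-05 over 16). Birc5 had 4.22, 5.59, 3.50, 2.81 and 4.87 FPKM in Vehicle replicates 1 to 5, 4.57, 3.80, 5.14, 5.60 and 5.40 in 25HC, 3.19, 4.28, 5.76, 5.33 and 4.69 in 25HC3S and 1.90, 2.22, 3.18, 2.60 and 2.72 in GW3965. GW3965 was below all 25HC and 25HC3S libraries and overlapped Vehicle at replicate 4. Birc5 differed by -0.75 ± 0.15 from 25HC (adjusted p = 0.0097 over 20), by -0.67 ± 0.15 from 25HC3S (adjusted p = 0.0093) and by -0.55 ± 0.15 from Vehicle (adjusted p = 0.037). The last call of Birc5 was lost without Vehicle 2 or any 1 of GW3965 1, 2, 4 and 5 (adjusted p 0.0573 to 0.101). It was also lost in the fit of 2 groups (adjusted p = 0.158), without the minimum (0.0603), with voom (0.0648) and with the replicate number as a block (0.0548). Incenp fell by 0.55 ± 0.09 on the log2 scale against 25HC (adjusted p = 0.002).

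**Figure D4:**
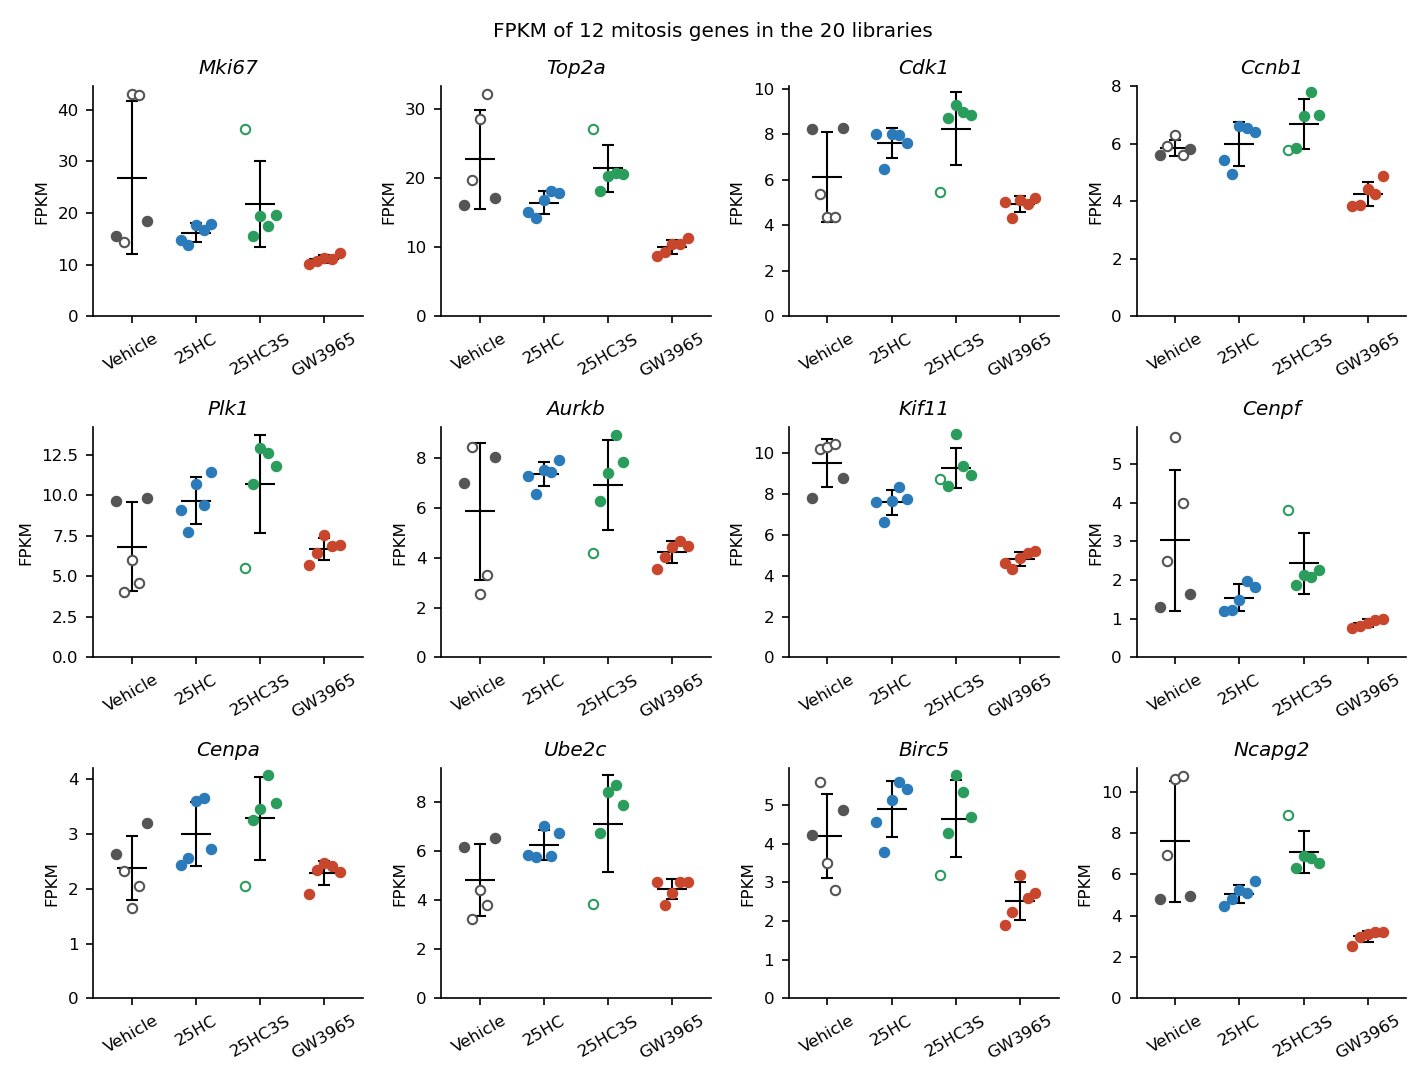
FPKM of the 12 members described library by library, 1 panel per gene and 1 point per library, with open points for the 4 libraries that stood apart and bars for the mean ± SD over 5 libraries. Filled GW3965 points lie below the 25HC points in every panel but that of Cenpa.

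Kif11 encodes the kinesin that pushes the spindle poles apart. Kif11 had 7.80, 10.2, 10.3, 10.5 and 8.77 FPKM in Vehicle replicates 1 to 5, 7.59, 6.62, 7.66, 8.36 and 7.74 in 25HC, 8.76, 8.38, 11.0, 9.37 and 8.93 in 25HC3S and 4.61, 4.34, 4.84, 5.12 and 5.19 in GW3965. GW3965 was below all 15 other libraries, and Vehicle 2, 3 and 4 were the highest libraries of Vehicle. The difference was -0.85 ± 0.08 against Vehicle (adjusted p = 3.0e-06), -0.56 ± 0.08 against 25HC (adjusted p = 5.9e-04) and -0.82 ± 0.08 against 25HC3S (adjusted p = 2.5e-06), all over 20 libraries. Of the 7 mitotic kinesins, 3 were called lower than in 25HC over 20 libraries (Kif11, Kif20b and Kif2c) and 7 over 16. The 7 differences from 25HC ran from -0.56 (Kif11) to -0.29 (Kif15). Kif15 can act on the spindle beside Kif11, Kif4 and Kif20a serve the central spindle, Kif23 with Racgap1 bundles its microtubules, and Kif2c takes microtubule ends apart.

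All 7 genes of spindle microtubule proteins were called lower in GW3965 than in Vehicle and than in 25HC3S over 20 libraries. Against 25HC, 4 were called over 20 (Ckap2, Ckap2l, Prc1 and Tpx2) and 7 over 16. Tpx2, whose product activates Aurora A and seeds microtubules, fell from 11.2 ± 0.841 FPKM to 7.23 ± 0.714 (difference -0.58 ± 0.07, adjusted p = 7.3e-05 over 20), the smallest adjusted p of the set in that comparison. Prc1, which crosslinks the central spindle, differed by -0.59 ± 0.08 (adjusted p = 1.7e-04). Aspm, Hmmr and Nusap1 differed by -0.44, -0.42 and -0.49 and were called over 16 libraries. Among the 4 genes of the cleavage furrow and cortex, Anln (-0.63), which encodes the furrow scaffold anillin, Ect2 (-0.52), which encodes the activator of RhoA, and Racgap1 (-0.50) were called lower than in 25HC over 20 libraries. The formin gene Diaph3 (-0.54) was called over 16.

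25HC and 25HC3S are 1 pair of related compounds at a matched dose of 20 µM and a matched time, and differ by the sulfate at the 3 position. The mean level was above that of 25HC in 45 of 50 members over 20 libraries and in 49 over 16. The ratio of mean FPKM, 25HC3S over 25HC, had a median of 1.17 over 20 libraries and 1.18 over 16, where it ran from 0.917 (Cdc25c) to 1.41 (Ckap2). In limma over 20 libraries 1 member, Ckap2, was called higher and 0 lower, beside 0.157% of all tested genes called higher and 0.659% lower, and 14 members were higher and 0 lower at an unadjusted p under 0.05, where 7.12% of all genes were. The call of Ckap2 was lost with a pseudocount of 0.1, without the minimum, with median scaling and in limma voom on fragments, each of which called 0 members. It was also lost in 13 of the 20 fits that left out 1 library, namely any of 25HC, 25HC3S 2 to 5 and GW3965 1 to 4. Over 16 libraries 13 were called higher and 0 lower, beside 2.49% called higher and 4.7% called lower of all genes. They were Cdk1, Ckap2, Hmmr, Kif11, Kif20a, Ncapg, Ncapg2, Ncaph, Prc1, Smc4, Top2a, Tpx2 and Ube2c. The median difference was 0.19 over 16 libraries beside 0.01 over all genes, where 54.5% of all genes were above 0. The 95% intervals of the 50 differences over 16 libraries ran together from -0.28, the lowest lower bound, to 0.59, the highest upper bound. These ends come from different members, and the interval of a single member is narrower.

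Compaction genes and spindle microtubule genes held 9 of the 13 calls, 5 of 8 and 4 of 7 in that order. In the chromosomal passenger complex 0 of 3 were called by limma over 16 libraries, with differences of 0.03 to 0.06. Among the members described library by library, Ncapg2 was higher in 25HC3S by 0.34 ± 0.06 over 16 libraries (adjusted p = 0.0024), Top2a by 0.27 ± 0.08 (adjusted p = 0.041), Kif11 by 0.27 ± 0.07 (adjusted p = 0.029), Ube2c by 0.30 ± 0.08 (adjusted p = 0.023) and Cdk1 by 0.21 ± 0.06 (adjusted p = 0.033). Over 20 libraries none of these 5 was called. Mki67 was not called in either fit (0.15 ± 0.08 over 16, adjusted p = 0.31, 95% interval -0.03 to 0.32), and neither was Aurkb (0.04 ± 0.08, interval -0.14 to 0.21).

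Ckap2 encodes a protein that stabilises spindle microtubules, and its values are given in full because it was called, so it was chosen after they were seen. Ckap2 had 4.81, 6.11, 5.37, 6.65 and 5.10 FPKM in Vehicle replicates 1 to 5, 4.82, 5.17, 6.34, 6.15 and 6.06 in 25HC, 6.61, 7.53, 8.20, 7.87 and 8.68 in 25HC3S and 3.39, 3.50, 3.61, 3.70 and 4.25 in GW3965. Every 25HC3S library lay above every 25HC library, as in 9 members over 20 libraries (3.27% of all genes): Ckap2, Ckap2l, Hmmr, Kif11, Mad2l1, Ncapg2, Smc4, Top2a and Tpx2. Ckap2 was higher in 25HC3S than in 25HC by 0.39 ± 0.09 over 20 libraries (adjusted p = 0.047) and 0.44 ± 0.07 over 16 (adjusted p = 0.0011). Against Vehicle it was higher by 0.41 ± 0.09 (adjusted p = 0.023) and 0.61 ± 0.09 (adjusted p = 0.0013). In 25HC3S with Vehicle it was the 1 member called over 20 libraries (0.463% of all genes called higher and 1.14% lower), and Ncapg2 (0.38 ± 0.08, adjusted p = 0.011) joined it over 16 (1.33% of all genes higher and 2.63% lower). Without 25HC3S replicate 1 alone, 5 members were called higher than in Vehicle, beside 1.42% of all genes. Macrophage markers summed to 399 to 767 FPKM in 25HC3S and 741 to 1052 in 25HC, with 3 of 14 called lower and 1 higher over 20 libraries and 8 lower and 1 higher over 16. Chondrocyte markers had 7 of 15 called lower over 16. The part of either in the result was not tested.

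25HC and Vehicle were compared with 0 members called in either direction by limma, over 20 libraries and over 16, where 0.00784% of all tested genes were called lower in both fits and 0.0314% and 0.0157% higher. The count test on recovered fragments (limma voom) also called 0. At an unadjusted p under 0.05, 16 members were lower and 3 higher over 20 libraries, 19 of 50 where 30.3% of all tested genes were under 0.05. The median difference was -0.12 over 20 libraries and -0.02 over 16. Over 16 libraries the differences ran from -0.14 (Ncaph) to 0.17 (Ckap2), and their 95% intervals together from -0.36 to 0.40. Cdk1 differed by -0.10 ± 0.07 (interval -0.25 to 0.05), Mki67 by -0.07 ± 0.10 (interval -0.29 to 0.15) and Plk1 by -0.02 ± 0.11 (interval -0.26 to 0.22). Leaving out Vehicle replicate 1 alone gave 13 members called lower and 3 higher, beside 9.52% and 11.3% of all genes. Leaving out Vehicle replicate 5 alone gave 9 and 1, beside 7.35% and 9.0%.

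The 4 libraries that stood apart did not shift the members as a block. Measured on the log2 scale against the mean of the libraries of their group outside the 4, which for Vehicle are replicates 1 and 5 alone, 17 members were higher in each of Vehicle 3, Vehicle 4 and 25HC3S 1, and 16 were lower in each. Mki67 (1.29, 1.29 and 0.98), Cenpf (1.44, 1.01 and 0.65) and Cenpe (0.91, 1.14 and 0.62) led the first set. Cdc20 (-1.29, -0.90 and -0.89), Aurkb (-1.26, -0.99 and -0.72) and Plk1 (-0.61, -0.94 and -0.99) led the second. The members of the first set had a median gene length of 7066 bases and a GC content of 42.9%, and those of the second 3081.5 bases and 49.9%. Across the 50 members the shift ran with gene length (Spearman rho 0.59, 0.66 and 0.64) and against GC content (-0.57, -0.59 and -0.56). Across all 12752 tested genes rho with length was 0.38, 0.36 and 0.38, and across 12742 of them rho with GC content was -0.55, -0.56 and -0.50. These are descriptions across genes of single libraries, and genes are not independent replicates. In Vehicle 2 the shift was of another kind, with rho of 0.16 for length and -0.36 for GC, Plk1 at -1.09 and Spc25 at 0.58. The part of length and GC in the comparisons with Vehicle was not tested, and in GW3965 with 25HC, which holds none of these libraries, rho was 0.30 for length and -0.16 for GC.

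**Figure D5:**
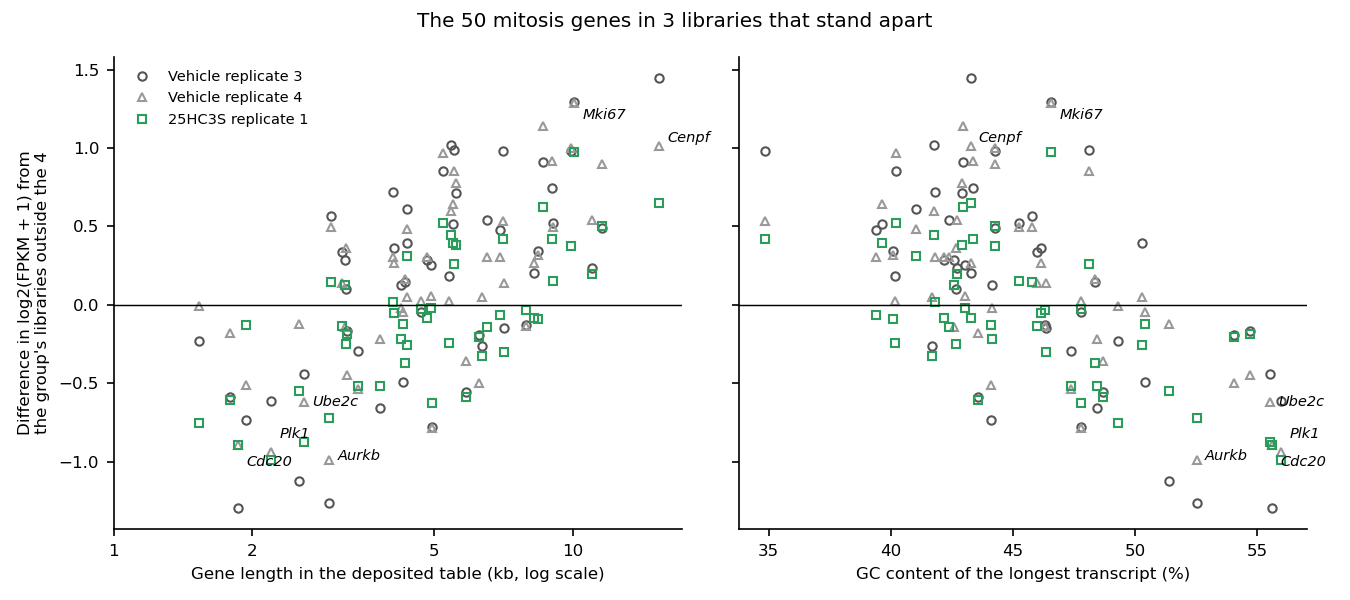
Difference of each member in log2(FPKM + 1) between Vehicle 3, Vehicle 4 or 25HC3S 1 and the libraries of its group outside the 4 (Vehicle 1 and 5, or 25HC3S 2 to 5), against gene length in kilobases (log scale, left) and GC content of the longest transcript (right). Long genes such as Cenpf and Mki67 lie above 0 and short genes such as Cdc20 and Aurkb below, with Spearman rho for length of 0.59, 0.66 and 0.64.

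Genes next to mitosis in the cell cycle are set beside the members by their counts. In GW3965 with 25HC, 0.894% of all tested genes were called lower and 0.847% higher over 20 libraries, and 6.82% and 6.3% over 16. Of 69 further mitosis genes that passed the minimum (74 listed), 16 were called lower and 0 higher in GW3965 than in 25HC over 20 libraries, and 56 and 0 over 16, with a median of -0.36. The largest differences called over 20 were Cenph (-0.73), Iqgap3 (-0.60), Fbxo5 (-0.59) and Kntc1 (-0.57), of a kinetochore subunit, a cytoskeletal scaffold, an inhibitor of the anaphase-promoting complex and a checkpoint protein. Of 32 DNA replication genes, 15 were called lower and 0 higher over 20 libraries and 29 and 0 over 16, with a median of -0.43. Mcm5 (-0.66), of the replicative helicase, Rrm2 (-0.60), of ribonucleotide reductase, Uhrf1 (-0.57), which maintains DNA methylation, and Lig1 (-0.53), DNA ligase I, led them. Of 23 cohesin and spindle genes that are also used outside mitosis, 0 were called over 20 libraries and 5 lower over 16, with a median of -0.03.

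Among the regulators of these genes, B-MYB and FOXM1 transcripts were lower in GW3965 as well. Of 23 regulators, 4 were called lower and 0 higher than in 25HC over 20 libraries, namely Mybl2 (-0.54), which encodes B-MYB, E2f8 (-0.49), Foxm1 (-0.46) and E2f7 (-0.40). Over 16 libraries 8 were lower and 2 higher, where 6.82% of all tested genes were called lower and 6.3% higher. The median difference of the 23 regulators was -0.09, with a range of -0.54 to 0.24. The part of these regulators in the levels of the members was not tested. Of 16 genes of G1 cyclins, CDKs and CDK inhibitors, 1 was called lower, Ccne1 (-0.50), and 1 higher, Cdkn2b (0.70), over 20 libraries, and 8 lower and 3 higher over 16. The median difference of these 16 genes was -0.09. Cdkn2b encodes p15INK4b, an inhibitor of CDK4 and CDK6. Its mean was 63.3 FPKM ± 3.06 in GW3965, 38.4 ± 1.43 in 25HC, 28.2 ± 5.98 in 25HC3S and 29.0 ± 8.12 in Vehicle (SD, n = 5), with GW3965 above all other libraries. Against Vehicle it was higher by 1.14 ± 0.16 over 20 libraries (adjusted p = 2.2e-04) and 0.92 ± 0.05 over 16 (adjusted p = 2.2e-08). Cdkn1a, which encodes p21, differed from Vehicle by 0.49 ± 0.10 over 20 libraries (adjusted p = 0.0062) and 0.24 ± 0.06 over 16 (adjusted p = 0.016). Against 25HC, Cdkn1a was not called over 20 libraries. The part of either inhibitor in the result was not tested.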

How the data were processed

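Trizol served for extraction and a fast library kit for sequencing, per the labels. The submitters' processing notes name the tools CASAVA 1.8 and HISAT2 2.0.5. For the counting program, its strand setting, the genome build and any batch, the entry is: not given in the sources used here. The authors deposited FPKM per gene and library. FPKM times gene length was divided by the smallest such value above 0 in each library, taken as 1 fragment. The results were whole within 0.02 for 99.976% of values, and depth was taken from them. These values include zeros, which are whole by construction, and 16346 to 21607 of 54532 genes were above 0 in a library. Fragments without molecular identifiers are not independent molecules.

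FPKM are not counts, so differences were tested with limma 3.58.1 (R 4.3.3) on log2(FPKM + 1), a scale that understates changes of low genes. One mean per group was fitted over 20 libraries with 1 shared spread, two-sided, with Benjamini-Hochberg adjustment over the 12752 genes at 1 FPKM or more in at least 5 libraries. Calls have an adjusted p below 0.05. Errors are standard errors, intervals are 95%. An error given with adjusted p-values of both fits is that over 20 libraries. Only the limma step was tested on simulated data, with the same spread in every library. Those data held no libraries that stand apart, so they do not show how the fit behaves with such libraries.

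The members and the lists were chosen with earlier results of these data known, so no list test was made. Values per library are given for 11 members that stand for their roles and for the 3 largest and 3 smallest differences between GW3965 and Vehicle, 12 genes in all, and for Ckap2, chosen after its values were seen. Other genes come from set lists, up to 4 called ones per list. Alternatives were a fit of 2 groups, 16 libraries, a pseudocount of 0.1, no minimum, median scaling, library weights, limma voom on fragments, the replicate number as a block and each library left out. Promoter windows are RefSeq's, on GRCm38.p6, the first listed per gene.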

Additional observations from a re-analysis of the deposited data

Results flagged for a closer look

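A library was singled out where its gap to the nearest of the other 4 libraries of its group was over 0.71 of the group's range (Dixon's 95% limit for 5). Chance gives about 1 in 20 groups. Among 52 groups looked at, for the 12 members described library by library and for the summed fragments of all 50, 7 passed. In 25HC3S replicate 1, 1 of the libraries that stood apart, Mki67 was at 36.28 FPKM (others 15.64 to 19.61), Cenpf at 3.814 (1.866 to 2.251), Ncapg2 at 8.854 (6.282 to 6.886) and Cdk1 at 5.451 (8.729 to 9.315). Cdk1 was at 6.476 in 25HC replicate 2 (7.636 to 8.041), and Cenpa at 1.90 in GW3965 replicate 1 (2.311 to 2.472). The summed mitotic fragments of 25HC3S replicate 2 were 1769 per 1000000 (others 2066 to 2091), and that library is not 1 of those that stood apart.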

How the results depend on the processing

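Members called lower in GW3965 than in 25HC numbered 24 over 20 libraries, 48 in a fit of those 2 groups, 49 without the 4 libraries that stood apart and 50 with library weights. The shares of all tested genes called lower were 0.894%, 5.87%, 6.82% and 6.98% in that order. Against Vehicle the 40 calls became 20 in a fit of 2 groups, beside 2.97% and 0.533% of all genes. The 1 call higher in 25HC3S than in 25HC became 13 without the 4 libraries, 14 with library weights, 2 with the replicate block, and 0 with a pseudocount of 0.1, without the minimum, with median scaling and with voom. The shares of all genes called higher were 0.157% over 20 libraries, then 2.49%, 2.84% and 0.0863%, and 0.118%, 0.0566%, 0.118% and 0.125% in that order. The 1 call higher in 25HC3S than in Vehicle became 0 in a fit of 2 groups, 2 without the 4 libraries and 3 with library weights. Here the shares were 0.463% over 20 libraries, then 0.0471%, 1.33% and 2.22%. The cause was not tested.

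Leaving out 1 library at a time gave 33 to 41 members lower in GW3965 than in Vehicle, 18 to 31 than in 25HC and 37 to 44 than in 25HC3S. The shares of all genes called lower were 1.69% to 11.2%, 0.541% to 1.31% and 1.59% to 2.72% in that order. For 25HC with Vehicle, leaving out 1 library gave 0 to 13 lower and 0 to 3 higher, beside 0.0% to 9.52% and 0.00784% to 11.3% of all genes. 25HC3S had 0 to 5 higher than Vehicle and 0 to 1 higher than 25HC, with 0 in 13 of the 20 fits. Beside them, 0.18% to 2.66% and 0.0392% to 0.212% of all genes were called higher. Mki67 lost its call against Vehicle without Vehicle replicate 3 or 4 and Top2a its call against 25HC in 9 of the alternatives (adjusted p up to 0.0985). For the 12 members described library by library, 18 differences were called over 20 libraries. Of 504 alternative values of these, 459 were still called, 45 were not, and 0 changed sign.

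Same-numbered libraries showed no clear common deviation (correlations of -0.702 to 0.27 over 30 pairs, 4 above 0.1, own number best in 11 of 60 cases), and the numbers were not taken as pairs. The group means of Vehicle and 25HC3S hold the libraries that stood apart, so with these groups the check cannot exclude pairing. Between 25HC and GW3965, which hold none of them, the correlations were -0.0034 to 0.0915. With the replicate block 37, 26 and 38 members were lower in GW3965 than in Vehicle, 25HC and 25HC3S, beside 2.09%, 0.784% and 1.82% of all genes. The block also lost the calls of Birc5 against Vehicle (adjusted p = 0.0548) and of Cenpf against 25HC3S (0.0561). In all, that call of Cenpf was lost in 11 of the alternatives (limma adjusted p up to 0.101). The call of Cdk1 lower in GW3965 than in 25HC3S was lost in 5 (up to 0.0594). Low counts limit Cdc25c, with 22 fragments in a library. With 2 Vehicle libraries among the 16, the spread of Vehicle rests on the other groups.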
